A study of Mus musculus with 2 samples.

Results

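The 7 genes described here encode the alarmin cytokines IL-33, TSLP and IL-18 (Il33, Tslp, Il18) and chains of their receptors (Il1rl1, Crlf2, Il7r, Il18r1). They were taken by name and are 7 of the 35208 gene rows of a single-cell cDNA matrix made from inflamed mouse ear skin. All 7 were present and were followed by cell type and by hashtag pool, a pool being the cells that carry the same barcoded antibody. WT and Ccr2-/- BALB/c mice were injected with IgE against the hapten TNP and challenged intradermally in the ear with TNP coupled to ovalbumin, which elicits IgE-mediated chronic allergic inflammation (IgE-CAI), and ears were taken on day 3 or day 5 after challenge. Ccr2-/- mice lack, in all their cells, the chemokine receptor that brings classical monocytes into inflamed tissue. The WT pools held 1543 cells on day 3 and 1037 on day 5, and the Ccr2-/- pools 2191 and 2347. Pool values are listed with WT before Ccr2-/- and, within a genotype, day 3 before day 5. Per the study's methods the mice were male and 7 to 12 weeks old. Every pool had been sensitized and challenged, so no unchallenged skin was compared here. Each genotype and day is 1 pool, and the number of mice behind a pool is not given in the sources used here.

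Alarmins are cytokines that barrier, stromal and myeloid cells hold ready or make on injury, and they act on innate and adaptive lymphocytes, mast cells and granulocytes. IL-33 binds ST2, the product of Il1rl1, which signals together with the accessory chain encoded by Il1rap. TSLP binds the receptor chain encoded by Crlf2 together with the IL-7 receptor alpha chain encoded by Il7r, and IL-18, cut from a precursor by an inflammasome protease, binds the product of Il18r1 together with that of Il18rap. In skin IL-33 and TSLP are best known as products of keratinocytes that drive type 2 inflammation.

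The deleted gene Ccr2 had 358 and 350 CPM (reads of the gene per 1000000 reads of the cells counted) in the WT pools of day 3 and day 5 and 13.5 and 11.8 CPM in the Ccr2-/- pools. Within Mo-Mac-like cells, which were fewer in the Ccr2-/- pools, it had 961 and 675 CPM (WT) and 86.6 and 28.8 CPM (Ccr2-/-). The 7118 cells kept had a median of 33687 reads, with pool medians from 18632 to 48232. The counts are sequencing reads, not molecules, so the CPM intervals below cover the counting error of reads only. Intervals of shares take the cells of a type as independent draws. No interval covers the spread between pools or mice. Cell types were named from marker genes. Fibroblast-like cells had 10514 CPM of Col1a1, mast cell-like cells 556 CPM of Kit, Mo-Mac-like cells (monocytes and macrophages) 1089.5 CPM of Csf1r and keratinocyte-like cells 4448 CPM of Krt14. The fibroblast collagen gene Col1a1 was read in 98.0% of fibroblast-like and 89.8% of all other cells. The part of free RNA in low shares of any member was not tested. Of the 119 regulatory T cell-like cells, 46.2% had a read of Foxp3. When each cell was named alone by its markers, 57 of the 119 took that name. Whether the others are regulatory T cells was not tested. Clusters without enough markers stayed unnamed. Of these, unnamed 4 (274 cells, median 4379.5 reads) was led by Retnlg, Alox15, Prg2, P2rx1, Inpp5j and Ccr3. Unnamed lymphoid 2 (124 cells) had Cd163l1 among its leading genes. The T cell receptor delta constant gene Trdc was read in 46.0% of its cells. Trdc was also read in 41.5% of unnamed lymphoid 4 and 34.6% of NK-like cells.

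Over all kept cells, Il33 had 108012 reads in 28.5% of cells, Il1rl1 33543 reads in 16.7%, Tslp 4997 reads in 7.67%, Crlf2 21267 reads in 32.4%, Il7r 9795 reads in 9.64%, Il18 4222 reads in 7.09% and Il18r1 3648 reads in 7.54%. These totals were uneven across cells. Of 307 sums of a member over 1 cell type in 1 pool that exceeded 3 reads, 89 (29.0%) had the larger part of their reads in a single cell.

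**Figure D1:**
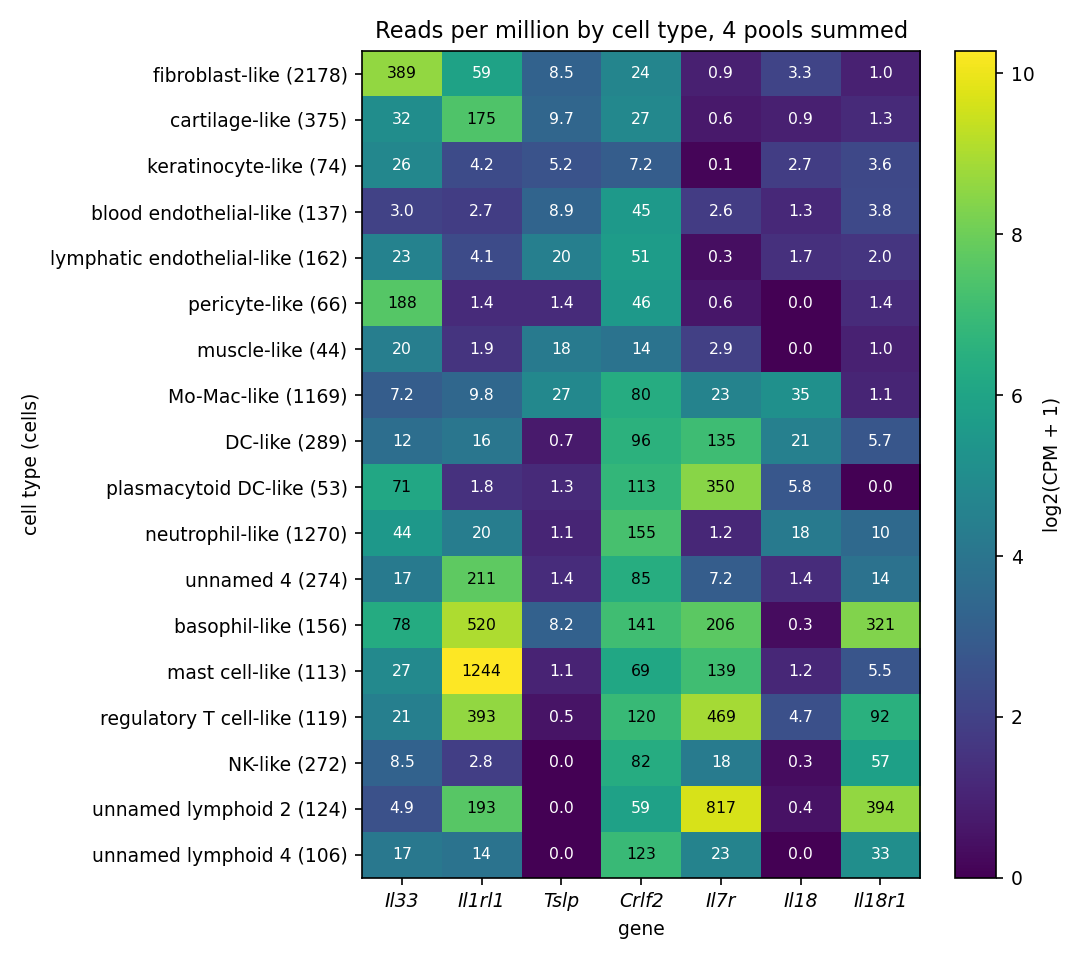
Each tile gives the CPM of 1 gene (column) in 1 cell type (row, number of cells in brackets), with the reads of all 4 pools summed and the colour on a log2(CPM + 1) scale. Colours compare cell types within a gene, not genes with each other; Il33 is highest in fibroblast-like cells (389 CPM) and Il1rl1 in mast cell-like cells (1244 CPM).

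The IL-33 gene was read mainly in fibroblasts. Il33 (chr19:29925114-29960718, plus strand, GRCm38) had 95.8% of its reads in fibroblast-like cells, which were 30.6% of the cells. Their share of the reads of all genes, whose numbers are given below with Il1rl1, lay between these 2 percentages. The Il33 level in fibroblast-like cells was 417 and 174 CPM in the WT pools and 484 and 323 CPM in the Ccr2-/- pools. The mean over these unlike pools was 349 ± 134 (SD, n = 4). The highest value was on day 3 in both genotypes. With every cell thinned to 10000 reads, 50.4% of fibroblast-like cells had an Il33 read (95% interval 48.1 to 52.6; 60.7% without thinning). The same share was 1.69% (0.206 to 5.99) in blood endothelial-like cells and 4.44% (2.15 to 8.02) in NK-like cells, and the median depths before thinning were 91611.5, 48816 and 17162.5 reads.

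Il33 differed between clusters of fibroblasts in every pool. The cluster led by Reg3g, Reg1 and Saa3 (cluster 7, 971 cells) had 616 and 291 CPM in the WT pools and 558 and 352 in the Ccr2-/- pools. The cluster led by Myoc, Mfap4 and Dkk2 (cluster 9, 793 cells) had 128 and 88.9 CPM (WT) and 172 and 146 CPM (Ccr2-/-). Cluster 7 was above cluster 9 in all 4 pools, and their ranges did not overlap. The cluster led by Ccl19 and Il13ra2 (cluster 0, 414 cells, median 8112.5 reads) had 249.3, 74.6, 274 and 289 CPM, and 77.8% of its WT day 5 reads were in 1 cell. At 10000 reads 71.8% of cluster 7 cells (68.8 to 74.6) and 28.2% of cluster 9 cells (25.1 to 31.5) had an Il33 read. The medians before thinning were 186916 and 67159 reads. Il33 and the other members took no part in the clustering.

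**Figure D2:**
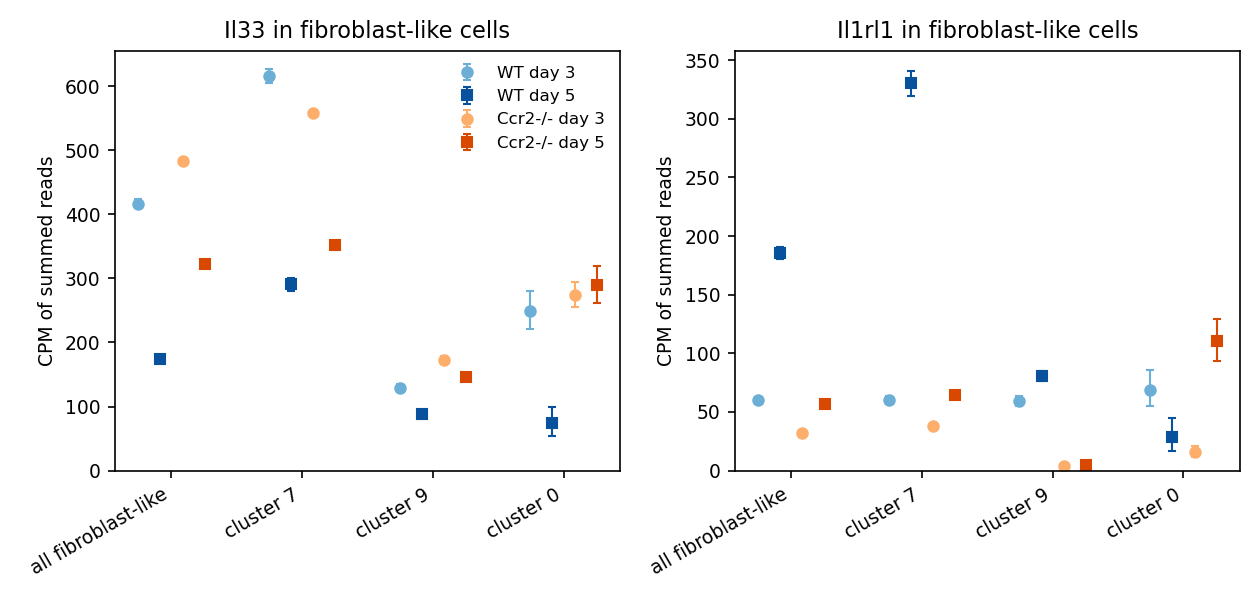
CPM of Il33 (left) and Il1rl1 (right) in all fibroblast-like cells and in each of their 3 clusters, 1 point per pool with its exact Poisson 95% interval, which covers counting error only. Il33 is higher in cluster 7 than in cluster 9 in all 4 pools, and Il1rl1 in cluster 9 is at 3.62 and 5.06 CPM in the Ccr2-/- pools against 59.2 and 80.5 in the WT pools.

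Genotype and day were compared within each cell type on reads summed by pool, with edgeR's quasi-likelihood test over all genes and Benjamini-Hochberg adjustment, in a model of day and genotype that leaves 1 residual degree of freedom. Each SE given with a fitted difference is approximate and was calculated back from the edgeR test statistic, so it is not a separate measure of error. In fibroblast-like cells the Ccr2-/- over WT ratio of Il33 was 1.16 on day 3 and 1.85 on day 5. The fitted genotype difference was 0.56 log2 units (SE 0.16, edgeR adjusted p = 0.146; DESeq2 adjusted p = 0.0295). The fitted difference of day 5 from day 3 was -0.91 log2 units (SE 0.16, edgeR adjusted p = 0.535; DESeq2 adjusted p = 0.000226). Both passed the threshold of 0.05 by DESeq2 and not by edgeR with its filter on low counts; without the filter the genotype difference passed (edgeR adjusted p = 0.0464). Of all genes in these cells, DESeq2 called 7.21% for genotype and 0.639% for day, and edgeR without the filter 3.98% for genotype. In the fibroblast genotype comparison edgeR called 0 of the 7 members, where it called 0.015% of the 20024 genes tested.

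The makeup of the fibroblast-like cells moved with genotype as well. Cluster 7 was 26.6% and 18.1% of them in the WT pools and 53.2% and 56.6% in the Ccr2-/- pools, while cluster 9 was 51.2% and 65.5% against 27.3% and 25.7%. Within cluster 7 the Ccr2-/- over WT ratio of Il33 was 0.907 on day 3 and 1.21 on day 5, and within cluster 9 it was 1.34 and 1.64. The direction in cluster 7 thus differed between the days. The part of the cluster makeup in the fibroblast difference was not tested.

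Outside fibroblasts, Il33 levels rested on few cells. Pericyte-like cells, the contractile cells around vessels, had 49.4, 469 and 212 CPM in the 3 pools with at least 10 such cells, with 59.3%, 60% and 73.1% of the reads in 1 cell. Cartilage-like cells had 22.5, 36.8, 25.6 and 39.1 CPM. Keratinocyte-like cells, the epithelial source for which IL-33 is known, numbered 74 and had 26.4 CPM over all pools, and 8 of 64 such cells at 10000 reads had an Il33 read (12.5%, 5.55 to 23.2). This share was far under that of fibroblast-like cells. In Mo-Mac-like cells the level was 7.38, 7.68, 3.81 and 9.61 CPM. By range over pools no neighbours in the order of types could be told apart for Il33, since fibroblast-like (174 to 484 CPM) and pericyte-like cells (49.4 to 469) overlapped and so did every later pair.

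TSLP, an IL-7-like cytokine, was read at low levels and with its highest mean level in Mo-Mac-like cells. Tslp (chr18:32815383-32819797, plus strand) stood at 20.4 and 40.0 CPM in Mo-Mac-like cells of WT skin and at 12.5 and 27.3 CPM in those of Ccr2-/- skin. Lymphatic endothelial-like cells followed with 8.42, 21.1, 22.5 and 26.6 CPM, and fibroblast-like cells had 9.12, 8.56, 8.98 and 7.75 CPM. A single lymphatic cell of WT day 5 held 72.2% of the 18 reads, and the value without it was 6.23 CPM. The Mo-Mac and lymphatic ranges overlapped, as did the lymphatic and fibroblast ranges, while all 4 Mo-Mac values lay above all 4 fibroblast values. Of all Tslp reads 45.4% were in fibroblast-like and 39.0% in Mo-Mac-like cells, a sum over unlike pools. In the WT pools Mo-Mac-like cells held 54.8% and 73.0% and fibroblast-like cells 31.5% and 15.5%. In the Ccr2-/- pools Mo-Mac-like cells held 9.68% and 17.3% and fibroblast-like cells 72.8% and 62.7%. The summed fibroblast share was under their share of the reads of all genes, whose numbers are given below with Il1rl1. Keratinocyte-like cells had 5.19 CPM, with 2 of 64 cells (3.12%, 0.381 to 10.8) positive at 10000 reads. Tslp reads were 0 in 272 NK-like cells (up to 0.513 CPM at the upper 95% bound) and 11 in 289 DC-like cells (0.664 CPM, 81.8% of it in 1 cell).

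Most of the macrophage Tslp reads came from 1 of 2 clusters. The cluster led by C1qc, C1qa, F13a1 and Pf4 (cluster 1, 560 cells) had 68.3, 49.6, 18.1 and 40.2 CPM in the 4 pools. The cluster led by Chil3, Arg1 and Fcgr1 (cluster 6, 609 cells) had 2.58, 7.54, 1.14 and 5.27 CPM, and 1 cell each held all 4 reads of the Ccr2-/- day 3 pool and 85.7% of the 14 reads of the pool of day 5. Cluster 1 was higher in all 4 pools, with no overlap of the ranges, and no single cell held more than 22.9% of the cluster 1 reads in a pool. At 10000 reads 19.4% of cluster 1 cells (16.1 to 23.0) and 2.16% of cluster 6 cells (1.12 to 3.74) had a Tslp read (medians of 56870 and 43232 reads before thinning). In neutrophil-like cells of the same pools the share was 0.336% (0.0407 to 1.21).

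Across conditions, Tslp in Mo-Mac-like cells was higher on day 5 than on day 3 in both genotypes, 1.96-fold in WT and 2.18-fold in Ccr2-/-. The fitted day difference was 1.03 log2 units (SE 0.28, edgeR adjusted p = 0.442) and the genotype difference -0.58 (SE 0.28, edgeR adjusted p = 0.359), neither past the threshold. Of the 7 members tested in Mo-Mac-like cells edgeR called 0 for genotype, against 0.984% of all genes. Cluster 1 was 25.4% of WT Mo-Mac-like cells on day 3 and 69.2% on day 5, and 56.0% and 50.5% in Ccr2-/-. Within cluster 1 the WT value was lower on day 5 than on day 3 (0.726-fold), the opposite of the pooled direction, and the Ccr2-/- value was 2.22-fold higher.

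**Figure D3:**
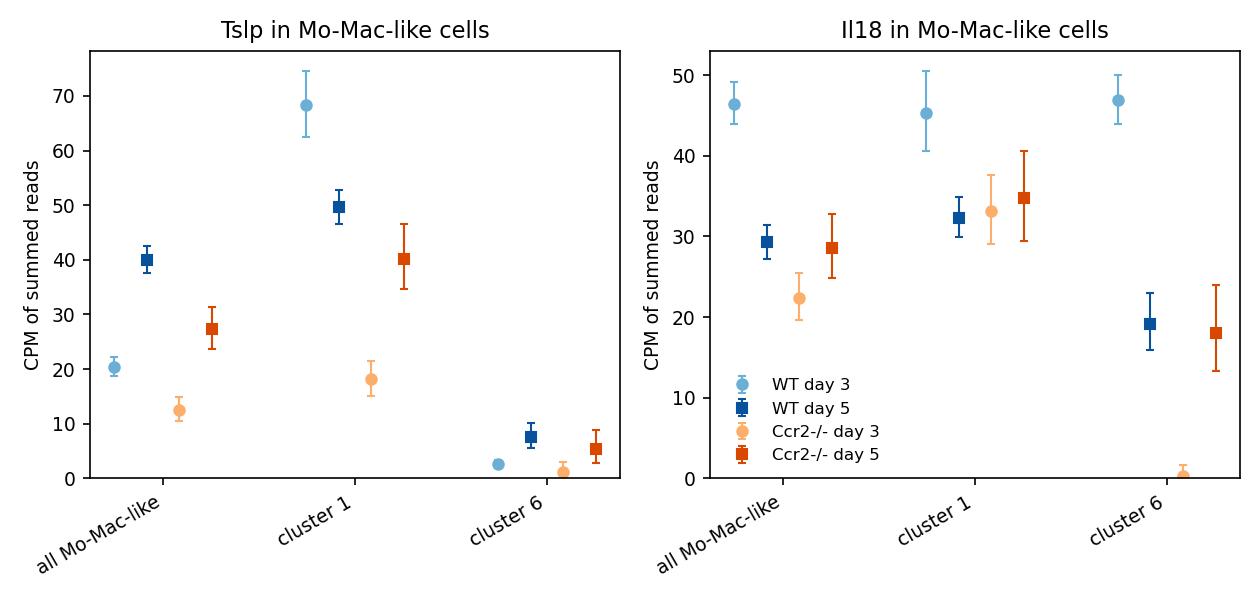
CPM of Tslp (left) and Il18 (right) in all Mo-Mac-like cells and in clusters 1 and 6, 1 point per pool with its exact Poisson 95% interval for counting error. Tslp is between 18.1 and 68.3 CPM in cluster 1 and between 1.14 and 7.54 in cluster 6, and Il18 in cluster 6 is near 0 in the Ccr2-/- day 3 pool (1 read).

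IL-18, the interferon-gamma-inducing member of the IL-1 family, was read mostly in macrophages in the WT pools. Over all pools, Il18 (chr9:50554827-50581840, plus strand) had 58.8% of its reads in Mo-Mac-like cells. The level there was 46.5 and 29.3 CPM (WT) and 22.4 and 28.6 CPM (Ccr2-/-). At 10000 reads 14.4% of these cells (12.4 to 16.7) had a read, against 0 of 225 NK-like cells (up to 1.63%). Mo-Mac-like cells held 77.2% and 68.8% of the Il18 reads in the WT pools. In the Ccr2-/- pools they held 38.1% and 24.8%, under the 39.0% and 30.8% of fibroblast-like cells. Neutrophil-like cells had 51.8 (all reads in 1 cell), 15.5 and 18.0 CPM in the 3 pools with at least 10 such cells. Their range overlapped with that of Mo-Mac-like cells. DC-like cells had 19.6, 12.7, 11.7 and 37.0 CPM, a range that overlapped with that of Mo-Mac-like cells (51.7% of the Ccr2-/- day 3 reads were in 1 cell, with 5.78 CPM left without it). In Mo-Mac cluster 1 the level was 45.4, 32.3, 33.1 and 34.7 CPM. In cluster 6 it was 46.9, 19.2, 0.284 and 18.1 CPM, so that 1 read was found in the 59 cluster 6 cells of Ccr2-/- day 3. The day 3 ratio of Ccr2-/- to WT in Mo-Mac-like cells was 0.482 and the day 5 ratio 0.975, and the fitted difference was -0.50 log2 units (SE 0.32, edgeR adjusted p = 0.490).

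Fibroblast-like cells had 4.53 and 8.68 CPM of Il18 in the WT pools and 2.19 and 2.77 in the Ccr2-/- pools. The WT values were both above the Ccr2-/- values, with a fitted difference of -1.34 log2 units (SE 0.31, edgeR adjusted p = 0.1003; DESeq2 adjusted p = 0.0356). Within cluster 7 the Ccr2-/- over WT ratio was 0.345 on day 3 and 0.560 on day 5, and within cluster 9 it was 1.12 and 0.513, so that cluster 9 went the other way on day 3. The part of the cluster makeup in this difference was not tested. Keratinocytes are a known source of IL-18, and the 74 keratinocyte-like cells had 26 Il18 reads, all in 1 cell. The pooled Il18 level over all cells was 18.2 and 16.6 CPM (WT) and 3.89 and 5.58 CPM (Ccr2-/-). Mo-Mac-like cells were 488 and 454 of the WT cells and 134 and 93 of the Ccr2-/- cells, and the part of these numbers in the level over all cells was not tested.

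The IL-33 receptor gene Il1rl1 (chr1:40429570-40465415, plus strand) was highest in mast cells, which carry ST2 at their surface. The level in mast cell-like cells was 599 and 925 CPM (WT) and 1266 and 1443 CPM (Ccr2-/-). At 10000 reads 82.5% of them (73.8 to 89.3) had an Il1rl1 read (85.0% without thinning), against 4% of NK-like cells (1.85 to 7.46), from medians of 42859 and 17162.5 reads. The Ccr2-/- pools were both above the WT pools, with ratios of 2.11 on day 3 and 1.56 on day 5. The fitted difference was 0.92 log2 units (SE 0.36, edgeR adjusted p = 0.682) and did not pass, and only 10 mast cell-like cells stood behind each WT value. In this comparison edgeR called 0 of the 4 members tested and 0.337% of all genes.

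Il1rl1 has more than 1 start site in the annotation, and the proximal and distal starts are used to different extents in hematopoietic cells and fibroblasts. Reads were counted per gene, so they do not tell the starts apart. The 250 bases before each of 2 RefSeq starts, which lie 10059 bases apart, are shown because mast cell-like and fibroblast-like cells both held Il1rl1 reads. Sequences are from RefSeq (GRCm38.p6, plus strand), at chr1:40429320-40429569 and chr1:40439379-40439628. Capitals mark matches to GATAA, the core bound by GATA factors, or to its reverse complement TTATC.
Il1rl1 first start: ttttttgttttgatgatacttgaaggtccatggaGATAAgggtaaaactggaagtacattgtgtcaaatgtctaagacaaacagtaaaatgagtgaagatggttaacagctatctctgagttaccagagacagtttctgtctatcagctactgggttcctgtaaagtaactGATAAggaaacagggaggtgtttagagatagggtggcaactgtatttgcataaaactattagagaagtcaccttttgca
Il1rl1 second start: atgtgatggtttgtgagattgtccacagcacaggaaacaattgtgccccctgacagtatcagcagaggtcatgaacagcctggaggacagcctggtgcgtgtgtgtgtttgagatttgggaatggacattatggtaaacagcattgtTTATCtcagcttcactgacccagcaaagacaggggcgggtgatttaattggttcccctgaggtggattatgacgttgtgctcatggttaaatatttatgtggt
The first window held 2 matches and the second 1. Of 32851 promoter windows of the same length, 22.6% held at least 1 match and 4.28% held at least 2, so a match describes these letters and not a bound site.

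Basophil-like and regulatory T cell-like cells followed. Basophil-like cells had 238, 520 and 675 CPM of Il1rl1 in WT day 3, Ccr2-/- day 3 and Ccr2-/- day 5 (WT day 5 held 2 such cells), and the regulatory T cell-like levels were 361, 328, 312.4 and 513 CPM in the 4 pools. The shares at 10000 reads were 55.5% (46.4 to 64.3) and 33.0% (23.5 to 43.6). The ranges of mast cell-like and basophil-like cells overlapped, as did those of basophil-like and regulatory T cell-like cells, while regulatory T cell-like cells stood above unnamed 4 (98.1 to 300.2 CPM) without overlap. A single regulatory T cell-like cell held 56.2% of the reads in WT day 5, and a single cell of unnamed 4 held 85.7% in WT day 3. Without the top cell of each pool these types overlapped, at 161 to 409 and 14.2 to 204 CPM. Unnamed lymphoid 2 had 53.7, 268 and 217 CPM, with 61.5%, 43.2% and 88.1% of the reads in 1 cell.

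Fibroblasts, though low per cell, held 47.1% of all Il1rl1 reads, which was under their share of the reads of all genes. They had the highest median depth of any type (91611.5 reads) and 266167776 reads of all genes. The 4 pools held 89492293, 68064673, 162572556 and 148269050 reads of all genes. Fibroblast-like cells had 60.2, 186, 31.7 and 56.8 CPM, and 8.27% of them (7.08 to 9.59) had a read at 10000 reads. The Ccr2-/- over WT ratio was 0.527 on day 3 and 0.306 on day 5. The fitted genotype difference of -1.31 log2 units (SE 0.21) had an edgeR adjusted p of 0.0681 and a DESeq2 adjusted p of 3.4e-07. The day difference of 1.24 (SE 0.21) had an edgeR adjusted p of 0.518 and a DESeq2 adjusted p of 1.6e-05. These 2 tools thus fell on different sides of the threshold for the same reads.

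In fibroblast cluster 9 the fitted genotype difference was larger than in the whole type, a contrast that was not itself tested. Il1rl1 there had 59.2 and 80.5 CPM in the WT pools and 3.62 and 5.06 in the Ccr2-/- pools. Fitted apart, an alternative added after the data were seen, cluster 9 gave a difference of -4.05 log2 units (SE 0.22, edgeR adjusted p = 0.0149), the only 1 of the 15843 genes tested that was called in that cluster (0.00631%). In the WT pools 49.7% and 60.5% of these reads were in 1 cell. Without the top cell of each pool the values were 29.9 and 32.1 CPM (WT) and 3.25 and 3.14 CPM (Ccr2-/-). At 10000 reads, 2.45% and 6.28% of WT cluster 9 cells had a read, as did 3.07% in both Ccr2-/- pools, and these intervals overlapped (0.801 to 5.63 and 3.29 to 10.7 against 1.24 to 6.22 and 1.003 to 7.01).

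In cluster 7 the WT day 5 pool stood apart, with 330 CPM of Il1rl1 against 60.3, 38.4 and 64.1 CPM in WT day 3, Ccr2-/- day 3 and Ccr2-/- day 5. At 10000 reads 32.1% of its 53 cells (19.9 to 46.3) had a read, against 12.1%, 6.92% and 15.2% in the same order. Cartilage-like cells had 64.3, 90.3, 298 and 144 CPM. A single cell held 41.2% to 76.8% of these reads, and without it the values were 19.7, 21.8, 179 and 75.0 CPM. The fitted genotype difference in cartilage-like cells was 1.45 log2 units (SE 0.38, edgeR adjusted p = 0.362; DESeq2 adjusted p = 0.00716), the opposite direction to that of fibroblast-like cells.

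**Figure D4:**
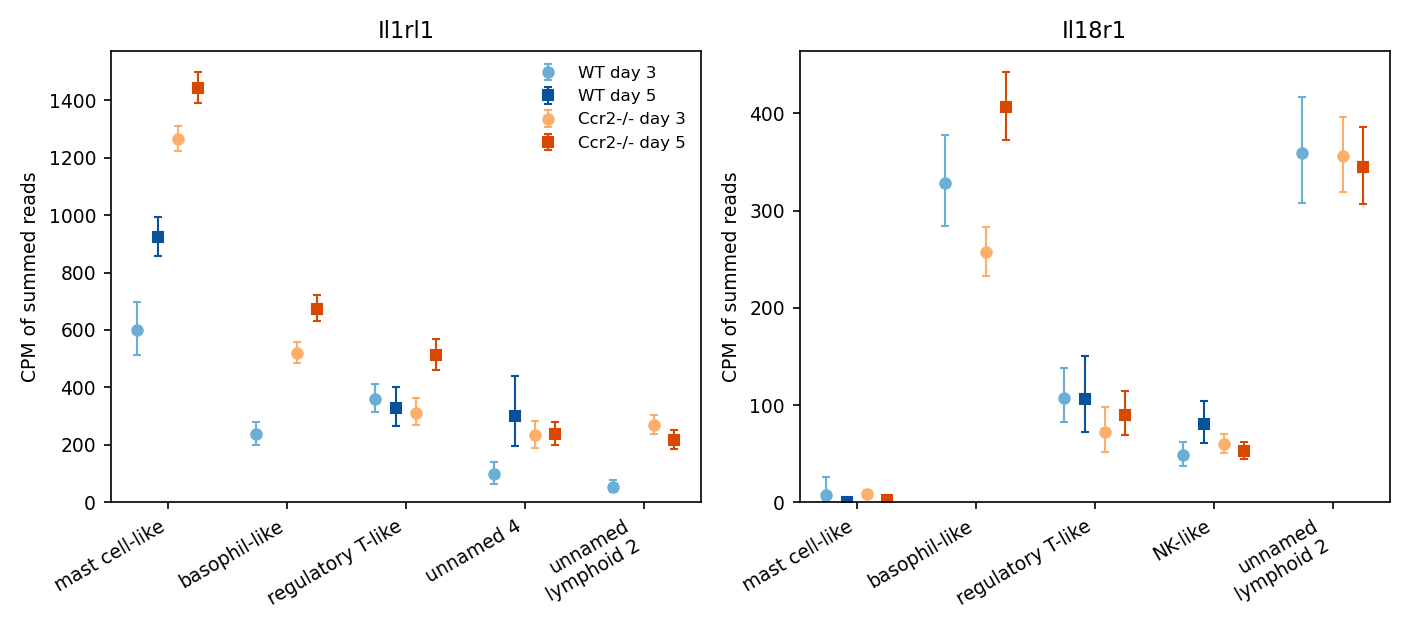
CPM of Il1rl1 (left) and Il18r1 (right) in the immune cell types with the highest mean levels, with mast cell-like cells added on the right. Each point is 1 pool with at least 10 cells of the type, with its exact Poisson 95% interval for counting error. Mast cell-like cells have the highest mean of Il1rl1 over pools (points from 599 to 1443 CPM). Their range overlaps with that of basophil-like cells (238 to 675 CPM). Mast cell-like cells have nearly no Il18r1 (0 to 8.69 CPM), while basophil-like cells have both.

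The TSLP receptor gene Crlf2 was the most evenly spread member. Crlf2 (chr5:109554709-109558993, minus strand) had 206 CPM in basophil-like cells of WT day 3 and 150 and 101.4 CPM in those of the Ccr2-/- pools. Mo-Mac-like cells had 86.8, 74.7, 85.0 and 70.8 CPM in the 4 pools, DC-like cells 103, 102, 106 and 77.3 CPM, and fibroblast-like cells 22.3, 27.0, 24.7 and 24.1 CPM. The pools of each of these last types lay close together. In neutrophil-like cells the level was 81.7, 166 and 155 CPM in the 3 pools with at least 10 such cells, and in regulatory T cell-like cells 90.2, 58.0, 199.5 and 107 CPM (52.9% of the 17 WT day 5 reads in 1 cell).

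At 10000 reads a Crlf2 read was found in 33.8% of DC-like cells (28.2 to 39.9), 32.2% of Mo-Mac-like cells (29.4 to 35.0), 32.0% of basophil-like cells (24.1 to 40.9) and 14.5% of fibroblast-like cells (12.9 to 16.1). Keratinocyte-like cells were lowest among the types with at least 50 cells, at 7.16 CPM and 6.25% (1.73 to 15.2). The ranges of the leading types overlapped, so their order is not resolved. For genotype the fitted difference was 0.00 log2 units in fibroblast-like cells (SE 0.16, edgeR adjusted p = 0.998) and -0.01 in Mo-Mac-like cells (SE 0.20, edgeR adjusted p = 0.992).

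Il7r, the chain that the TSLP and IL-7 receptors share, was highest in unnamed lymphoid 2 and regulatory T cell-like cells. Il7r (chr15:9505788-9530176, minus strand) had 904, 759 and 750 CPM in unnamed lymphoid 2 (WT day 3, Ccr2-/- day 3 and Ccr2-/- day 5; WT day 5 held 7 such cells). The levels of regulatory T cell-like cells were 498, 481, 499.6 and 415 CPM, and plasmacytoid DC-like cells 530, 336 and 340 CPM in the same 3 pools as above. Basophil-like cells had 295, 201 and 183 CPM. Unnamed lymphoid 2 stood above regulatory T cell-like cells without overlap, plasmacytoid DC-like above basophil-like and basophil-like above DC-like cells (126, 106, 181 and 151 CPM), while regulatory T cell-like and plasmacytoid DC-like cells overlapped. At 10000 reads 66.7% of unnamed lymphoid 2 cells (56.8 to 75.6) and 0.931% of fibroblast-like cells (0.553 to 1.47) had a read, from medians of 16926.5 and 91611.5 reads.

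Mast cell-like cells carried Il7r at 208, 43.4, 207 and 66.2 CPM, with a read in 41.7% of cells (32.1 to 51.9) at 10000 reads. Both day 3 values were above both day 5 values, with a fitted day difference of -1.88 log2 units (SE 0.64, edgeR adjusted p = 0.557), and 88.2% of the 34 reads of WT day 5 were in 1 cell. In Mo-Mac-like cells Il7r had 15.4, 38.0, 15.3 and 7.66 CPM, and 1 cell held 57.0% of the Ccr2-/- day 3 reads (6.62 CPM without it). The fitted genotype difference there was -1.07 (SE 0.56, edgeR adjusted p = 0.387).

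Il18r1, the ligand-binding chain of the IL-18 receptor, marked lymphoid cells and basophils. The gene lies at chr1:40465552-40500854 on the plus strand, 136 bases after the end of Il1rl1. Unnamed lymphoid 2 had 359, 356 and 345 CPM and basophil-like cells 328, 257 and 406 CPM in WT day 3, Ccr2-/- day 3 and Ccr2-/- day 5. These ranges overlapped, and both types stood above regulatory T cell-like cells (107.5, 106, 72.4 and 89.6 CPM). A single cell held 53.2% and 51.6% of the regulatory T cell-like reads in WT day 3 and WT day 5, and without it the values were 51.4 and 55.8 CPM. NK-like cells had 48.2, 80.7, 59.6 and 52.9 CPM.

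At 10000 reads the share with an Il18r1 read was 58.1% (48.1 to 67.7) in unnamed lymphoid 2, 54.7% (45.7 to 63.5) in basophil-like cells, 20.9% (15.8 to 26.8) in NK-like cells and 1.09% (0.673 to 1.66) in fibroblast-like cells. Mast cell-like cells, where Il1rl1 was highest, had 31 Il18r1 reads (5.47 CPM, 61.3% in 1 cell) and a share of 1.94% (0.236 to 6.84). Plasmacytoid DC-like cells, with much Il7r, had 0 reads in 53 cells (up to 1.65 CPM at the upper 95% bound).

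**Figure D5:**
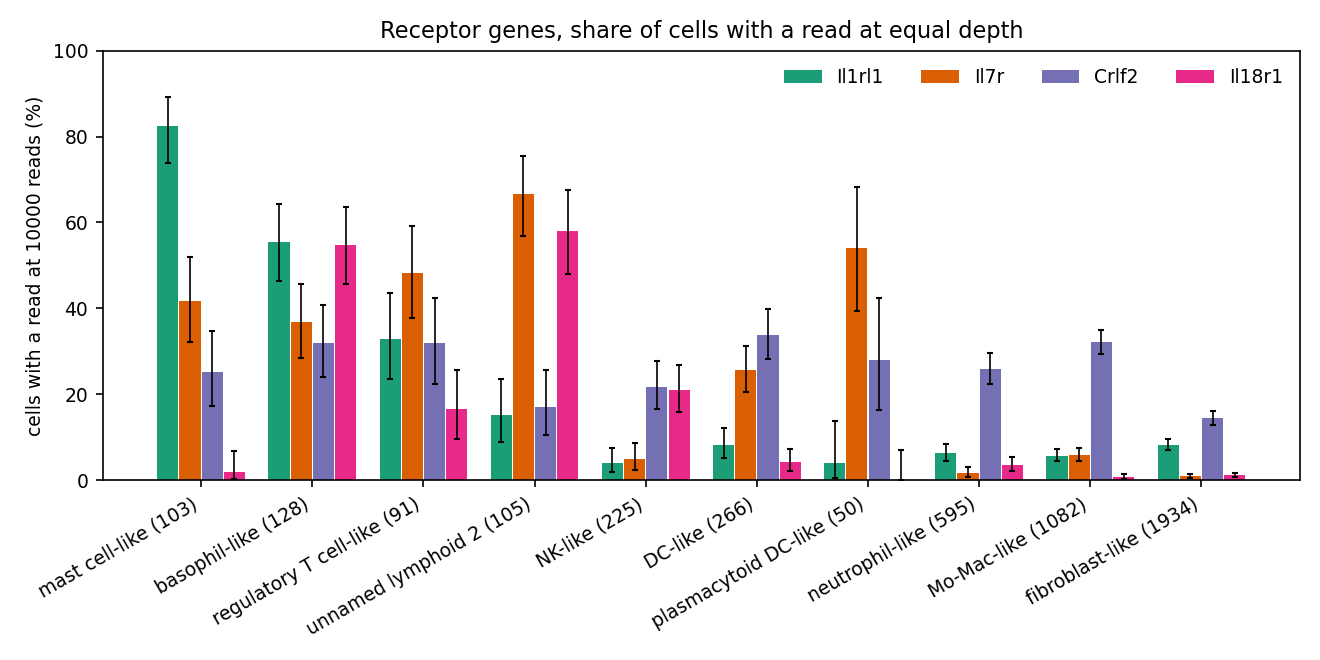
Share of cells with at least 1 read of each receptor gene after every cell was thinned to 10000 reads, pools summed, with Clopper-Pearson 95% intervals and the number of thinned cells in brackets. Crlf2 is spread over all 10 types (14.5% to 33.8%), while Il18r1 is at 58.1% and 54.7% in unnamed lymphoid 2 and basophil-like cells and at most 20.9% elsewhere.

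Reads of both chains of a receptor were found in the same cells about as often as the product of the single shares gives. Il7r and Crlf2 were read together in 14.3% of regulatory T cell-like cells (7.83 to 23.2; product 15.4%), 14.1% of basophil-like cells (8.55 to 21.3; product 11.8%) and 10.5% of DC-like cells (7.11 to 14.9; product 8.65%). Il18r1 and Il18rap, the signalling chain, were read together in 40.6% of basophil-like cells (32.0 to 49.7; product 40.2%). Il1rl1 and its accessory chain Il1rap were together in 4.85% of mast cell-like cells (1.59 to 11.0; product 4.81%), where Il1rap itself had 12.5 CPM. All these products lay inside the intervals. Basophil-like cells also combined Il1rl1 with Il18r1 in 28.9% of cells (21.2 to 37.6; product 30.3%), and mast cell-like cells combined Il1rl1 with Il7r in 30.1% (21.5 to 39.9; product 34.5%).

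Further genes of these pathways came from a list of 25, of which 24 were in the matrix. In each of the 9 cell types fitted, 15 to 22 of them were tested, and edgeR called 0 in either direction for genotype or for day. Among receptor partners, Il18rap had 577 CPM in basophil-like, 358 in neutrophil-like and 236 in NK-like cells. Il1rap was highest in neutrophil-like cells (460 CPM), where Il1rl1 had 19.8 CPM. The inflammasome sensor gene Nlrp3 had 1002 CPM in neutrophil-like and 834 in basophil-like cells, while Casp1, whose protease cuts the IL-18 precursor, had its highest level among types of at least 50 cells in Mo-Mac-like cells (45.9 CPM). Il18bp, which encodes a soluble trap for IL-18, had 66.0 CPM in neutrophil-like and 20.9 in Mo-Mac-like cells. Il7, which encodes the other ligand of the Il7r chain, was highest in lymphatic endothelial-like cells (133 CPM), with 26.4 CPM in keratinocyte-like cells. Of the outputs, Areg, the epidermal growth factor family member, had 1005 CPM in basophil-like cells with a read in 16.4% of them at 10000 reads, and Ifng 202 CPM in NK-like cells.

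Across the 9 types fitted, 40 combinations of member and type were tested for each factor. For genotype edgeR called 0 (6 at an unadjusted p under 0.05) and DESeq2 4, of which 3 were in fibroblast-like and 1 in cartilage-like cells (1.1% of all genes by DESeq2). For day edgeR called 0 (4 at an unadjusted p under 0.05) and DESeq2 2, both in fibroblast-like cells. For genotype, DESeq2 called 4.02% of all genes in Mo-Mac-like, 0.552% in DC-like, 0.39% in lymphatic endothelial-like, 0.208% in blood endothelial-like, 0.123% in mast cell-like, 0.056% in regulatory T cell-like and 0.0285% in NK-like cells, with no member among them. For day it called 0.516% in Mo-Mac-like, 0.129% in cartilage-like, 0.123% in mast cell-like, 0.0998% in lymphatic endothelial-like, 0.0544% in DC-like, 0.0346% in blood endothelial-like and 0.028% in regulatory T cell-like cells and 0 in NK-like cells, again with no member. The background of genes called for day by edgeR was 0.266% in mast cell-like, 0.014% in regulatory T cell-like and 0.00865% in blood endothelial-like cells, and 0 in the other 6 types. For genotype the edgeR background was 0 outside fibroblast-like, Mo-Mac-like and mast cell-like cells. With the Mo-Mac clusters fitted apart, edgeR called no member, against 1.26% of genes for genotype in cluster 1 and 0.00793% for day in cluster 6. An exact two-sided permutation of genotype over the 4 pools cannot go below p = 0.33, so none of the 77 combinations of member and type, nor the 35 of member and cluster, could pass it.

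Genes with a like pattern were found by Pearson correlation of log2(CPM + 1) over 70 sums of 22 types by pool, among 14077 genes. These points share 1 library and differ in depth, so the values are a description. Il33 was closest to Rarres2 (r = 0.72), Cxcl5, Dclk1, Slit3 and Cyp1b1. Il1rl1 was closest to Tiam1 (0.75), Ikzf2, Itga2b, Ifrd1 and Gm47415, and Tslp to Gja1 (0.68), Nqo1, Emp1, 2900041M22Rik and Mb21d2. Crlf2 was closest to Tgfb1 (0.73), Itsn2, Jak2, Gsdmd and Soat2. Il7r was closest to Cd69 (0.84), Spn, Otulinl, Rasal3 and Cd48, and Il18 to Wfdc17 (0.76), Aif1, Fcna, Card9 and Clec4a3. Genes close to Il18r1 included Skap1, Ms4a4b, Trbc1 and Tbc1d10c. Among the members themselves the highest values were 0.59 for Il7r with Il18r1 and 0.47 for Il1rl1 with Il18r1.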

How the data were processed

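Skin cells from 4 hashtag pools were profiled in 1 BD Rhapsody TAS-Seq experiment, giving a cDNA and a hashtag library. Per the labels and the study's methods, reads were trimmed with Cutadapt and mapped with Bowtie2 to GRCm38.p6, and the authors deposited read counts per gene and cell barcode and read counts per hashtag. The methods describe a correction of background reads; whether the deposited counts carry it is not given in the sources used here.

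Of 8953 barcodes, 760 with under 10 hashtag reads, 570 with several hashtags (top hashtag under 3 times the next, pseudocount 1) and 594 with over 20% mitochondrial reads were dropped, as were cells under 200 genes. Doublets within a pool were not marked. The other 9 hashtag columns were not used. Cells were clustered in Scanpy 1.11.5 (2000 variable genes, 30 components, 20 neighbours, Leiden resolution 1) without the members and pathway genes unless these are type markers. Clusters were named from 24 marker lists, and the naming limits were set after seeing the clusters, so the types may differ from the study's. Re-clustering split lymphoid and vessel cells further.

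Levels are CPM of summed reads with exact Poisson 95% intervals, and shares have Clopper-Pearson 95% intervals after each cell was thinned to 10000 reads. A sum needed at least 10 cells, and single values at or under 3 reads give no ratio. Reads summed per pool and type were tested in R 4.3.3 with edgeR 4.0.16 (TMM, filterByExpr, quasi-likelihood, model of day and genotype, threshold 0.05), with DESeq2 1.42.0 as an alternative; the edgeR script was tested on simulated data. The approximate SE is the size of the edgeR log2 difference divided by the square root of its F statistic. With 1 pool per genotype and day, days are the only replication of genotype, and p-values measure the spread between these pools, which may be technical. The members, pathway genes and marker lists were chosen with earlier results of these data known. Genes named are the members, the pathway list and, for each member, the 5 genes (of those with at least 1000 reads) most correlated with it, less 1 gene that is not reported here; other genes named are markers or cluster-leading genes.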

Additional observations from a re-analysis of the deposited data

Results flagged for a closer look

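The level of Il33 in DC-like cells was 3.53 times as high in Ccr2-/- as in WT on day 3 and 0.121 times as high on day 5, so that the genotypes moved in opposite directions on the 2 days; this difference was not tested. The 4 values were 4.68 and 24.9 CPM (WT) and 16.5 and 3.01 CPM (Ccr2-/-). In WT day 5 a single cell held 84.6% of the reads and in Ccr2-/- day 3 a single cell held 56.1%. Without the top cell of each pool the values were 3.19 and 3.96 CPM (WT) and 7.46 and 2.60 CPM (Ccr2-/-).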

How the results depend on the processing

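Each leading level and share was recomputed under 7 or 8 alternatives, given here as means over pools. Il18r1 in unnamed lymphoid 2 was 423 CPM at a mitochondrial limit of 10% (its cells then named gamma-delta T cell-like), 392 as a mean of single-cell CPM and 297 without the top cell of each pool (added after seeing the data), against 353, and Il7r there was 898 as a mean of single-cell CPM against 804. With at least 3 reads for a positive cell the shares were 29.2% for Il33, 3.79% for Tslp, 21.4% for Crlf2, 56.1% for Il7r, 4.25% for Il18 and 40.6% for Il18r1, and at 5000 reads per cell 24.8% for Crlf2, 8.33% for Il18 and 48.2% for Il18r1. All other levels and shares moved by less than 1 SD over pools. This is a wide limit, since the pools differ in genotype and day. Il33 in fibroblast-like cells went from 262 to 362 CPM over the alternatives (349 in the main setting, SD 134). Il1rl1 in mast cell-like cells went from 856 to 1066 CPM (1058 in the main setting, SD 374).

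For genotype, 0 members were called by edgeR, 4 by DESeq2 (Il1rl1 in cartilage-like and fibroblast-like, Il33 and Il18 in fibroblast-like cells) and 3 with no filter on low counts (without Il18). Of all genes DESeq2 called 7.21% in fibroblast-like and 1.1% in cartilage-like cells, and edgeR with no filter 3.98% and 0.484%. Fits that left out 1 pool had no term for day and kept a lone pool of 1 genotype, so no calls are given from them. Without WT day 3 the lone WT pool was that of day 5, so genotype and day could not be told apart. Il7r in WT day 5 had 38.0 CPM in Mo-Mac-like and 82.1 CPM in NK-like cells. In WT day 3 it had 15.4 and 24.9 CPM. The Ccr2-/- pools had 15.3 and 7.66 CPM in Mo-Mac-like and 11.1 and 5.58 CPM in NK-like cells. For day, DESeq2 called 2 (Il1rl1 and Il33 in fibroblast-like cells, with 0.639% of all genes) and edgeR called 0 under every setting run. Gating each cell alone gave no value for unnamed lymphoid 2, which is a cluster and not a marker list. The main model compares genotypes within day, and with all 4 pools but without day as a term edgeR again called 0 members. Beyond the match by day, no paired analysis was possible because the pools carry no replicate numbers. Rare types limit precision: in WT there were 10 mast cell-like cells per pool, and WT day 5 held 2 basophil-like cells.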

Other observations

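Of the cells named by no list, unnamed 4 was led by Retnlg, Alox15, Prg2, P2rx1, Inpp5j and Ccr3. Its highest-scoring marker list was mast cell-like, which did not pass the naming limits. Of eosinophil-like markers, Prg2 was read in 22.6% of its cells, Ccr3 in 27.4%, Siglecf in 10.2% and Epx in 0.730%. Il1rl1 in unnamed 4 was at 98.1 (85.7% of the reads in 1 cell) and 300.2 CPM (WT) and 234 and 237 CPM (Ccr2-/-). Its median was 4379.5 reads per cell, and 10 of its 274 cells reached 10000 reads. Unnamed lymphoid 2 had Areg at 249.1 CPM. Its highest-scoring marker list was gamma-delta T cell-like, which did not pass the naming limits, and the next was that of group 2 innate lymphoid cells. Rora was read in 64.5% of its cells, Cd3e in 43.5%, Gata3 in 37.9% and Il13 in 7.26%, with no Il5 read. Gata3 was likewise read in 40.6% of unnamed lymphoid 4, 41.2% of regulatory T cell-like and 31.6% of NK-like cells. The Rora shares of these types were 29.2%, 42.9% and 22.4% in the same order. Il25, the remaining ligand often grouped with these alarmins, had 0.0188 CPM in fibroblast-like cells and 0 in the 289 DC-like and 1169 Mo-Mac-like cells.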
